A study of Rattus norvegicus with 7 samples.

Results

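The respiratory chain and the ATP synthase were followed at the RNA level through 92 genes on the array, out of 36174 gene names in all. They were taken by name, as every gene whose symbol in the array files begins with Ndufa, Ndufb, Ndufc, Ndufs, Ndufv, Uqcr, Cox4 to Cox8 or Atp5, with Sdha to Sdhd, Cyc1 and Cycs. The name rule itself uses no measured value, but it was set with earlier results of these data known. The genes carry 126 probes among the 45598 on the array, and the prefixes also catch 11 genes that are assembly factors, like-named proteins or a pseudogene, which were kept apart.

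The cells were NR8383, a line of alveolar macrophages derived from the lung lavage of a normal rat. Control cells (4 replicates) and cells given 2 µg/mL of zinc oxide nanoparticles (ZnO NPs, 3 replicates) were both kept for 4 h without serum. The dose is that of the sample labels, and the methods of the study state another one. Total RNA of each replicate was read on 1 one-color Agilent array. A single line was used, so the replicates carry no spread between animals, and in bulk RNA fewer cells of a type and less RNA per cell cannot be told apart.

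The respiratory chain sits in the inner mitochondrial membrane. Complex I takes electrons from NADH and complex II takes them from succinate, complex III passes them to cytochrome c, and complex IV hands them to oxygen. The proton gradient that complexes I, III and IV build drives the ATP synthase. A few subunits of these complexes are encoded by mitochondrial DNA and the others by nuclear genes, which are the ones measured here. Alveolar macrophages are known for a high reliance on oxidative metabolism, and zinc ions are known to inhibit several steps of the chain in isolated mitochondria.

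A probe of 60 bases stands for each gene, and for close copies its letters decide what is read. Cox6c (a small subunit of complex IV, shown by the dimmer of its 2 probes, on chr7:71474397-71474456, minus strand of rn4) and its pseudogene Cox6c-ps1 (on chr19:54398139-54398198, minus strand) show this, with the differing bases in capitals.
Cox6c: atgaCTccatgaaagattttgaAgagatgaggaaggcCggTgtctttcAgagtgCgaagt
Cox6c-ps1: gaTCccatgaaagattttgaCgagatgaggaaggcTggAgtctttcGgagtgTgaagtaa
Of 58 aligned bases, 51 matched and 7 did not. The signal of the Cox6c-ps1 probe was therefore treated as uncertain, since transcripts of either gene could bind it.

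Probes of 3 other genes described below are given to show the letters that were measured. They are those of Atp5g3 (now Atp5mc3, a gene of the membrane ring of the ATP synthase), Ndufs6 (a zinc-binding subunit of complex I, chr2:26295954-26296013, plus strand of rn4) and Cycs (cytochrome c, the dimmer of its 2 probes, chr4:78826694-78826753, minus strand). The files give no position for the Atp5g3 probe.
Atp5g3: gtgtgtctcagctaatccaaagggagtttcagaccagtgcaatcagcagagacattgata
Ndufs6: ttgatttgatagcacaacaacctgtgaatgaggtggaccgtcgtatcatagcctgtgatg
Cycs: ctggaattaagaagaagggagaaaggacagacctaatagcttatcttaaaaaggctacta

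Each array had 51.7% to 56.0% of its spots well above background, and no spot was saturated. The software that read the scans marked control 3, control 4, ZnO 2 and ZnO 3 for evaluation in its quality summary, and none of the other arrays. All arrays shared 1 slide. Control RNA filled one of its columns and exposed RNA the other, so column and exposure cannot be told apart. Of 14 macrophage markers, 12 were well above background on every array, while Marco was so on none and Adgre1 on 1. Few markers of other cells were (1 of 10 epithelial, 2 of 6 fibroblast, 3 of 6 endothelial, 1 of 6 lymphocyte and 2 of 6 neutrophil). The exposure registered on these arrays, with metallothionein Mt2A higher by 5.83 on the log2 scale (standard error 0.13, limma's adjusted p = 3.94e-06).

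Nearly all of these genes gave a usable signal. A probe was tested if, in 1 group or both, it was well above background throughout. Of the 92 genes, 89 had such a probe, and each of the 89 had a probe above background on every array. These genes were read by 118 tested probes. The others were Cox8c (a complex IV isoform known from testis) and Ndufa4l2 (a relative of Ndufa4 known as hypoxia-induced), with no probe well above background on any array. The third, Ndufs4, an accessory subunit of complex I, was above it on 3 of 7 arrays. A dark probe bounds what was bound to it and does not show that the gene is silent.

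No gene of the chain or the ATP synthase passed the test after 4 h of ZnO NPs. limma with Benjamini-Hochberg adjustment over all 20065 probes tested called 0 member probes at an adjusted p under 0.05. It called 0.0498% of all probes, every one of them higher in ZnO, and 0.0199% passed the thresholds of the study (a change of more than 1.5-fold at an adjusted p under 0.001), again with no member. At an unadjusted p under 0.05 there were 4 member probes of 3 genes, all higher in ZnO, or 3.39% of those tested against 5.91% of all probes. Of all probes, 3.06% were higher and 2.85% lower in ZnO by that measure. The count of 4 member probes became 2 without control replicate 3 (5.47% of all probes) and 7 without ZnO replicate 1 (8.95%).

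The differences were small as well as uncalled. Values below are log2 differences, ZnO minus control, of the brightest tested probe of a gene. Over the 89 genes the median was 0.018, beside -0.0064 over all probes tested, with 54 genes above 0 and 35 below. The lowest was -0.18, for Ndufaf7, and the highest 0.39, for Cox6a2. In 84 of the 89 genes the difference was under 0.2 in size.

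How large a change could have been missed follows from the intervals. The 95% interval of the difference stayed inside 1.5-fold in either direction for 111 of the 118 member probes (94.1%), beside 82.6% of all probes tested. The 7 probes with wider intervals belonged to Cox6a2 (both probes), Cox6b2, Cox8b, Cox7c (its dimmer probe), Uqcrq (its dimmer probe) and Cox6c-ps1. The median standard error was 0.085 over the member genes, each at its brightest tested probe, and 0.11 over all tested probes of any brightness. The part of signal level in these comparisons was not tested.

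**Figure D1:**
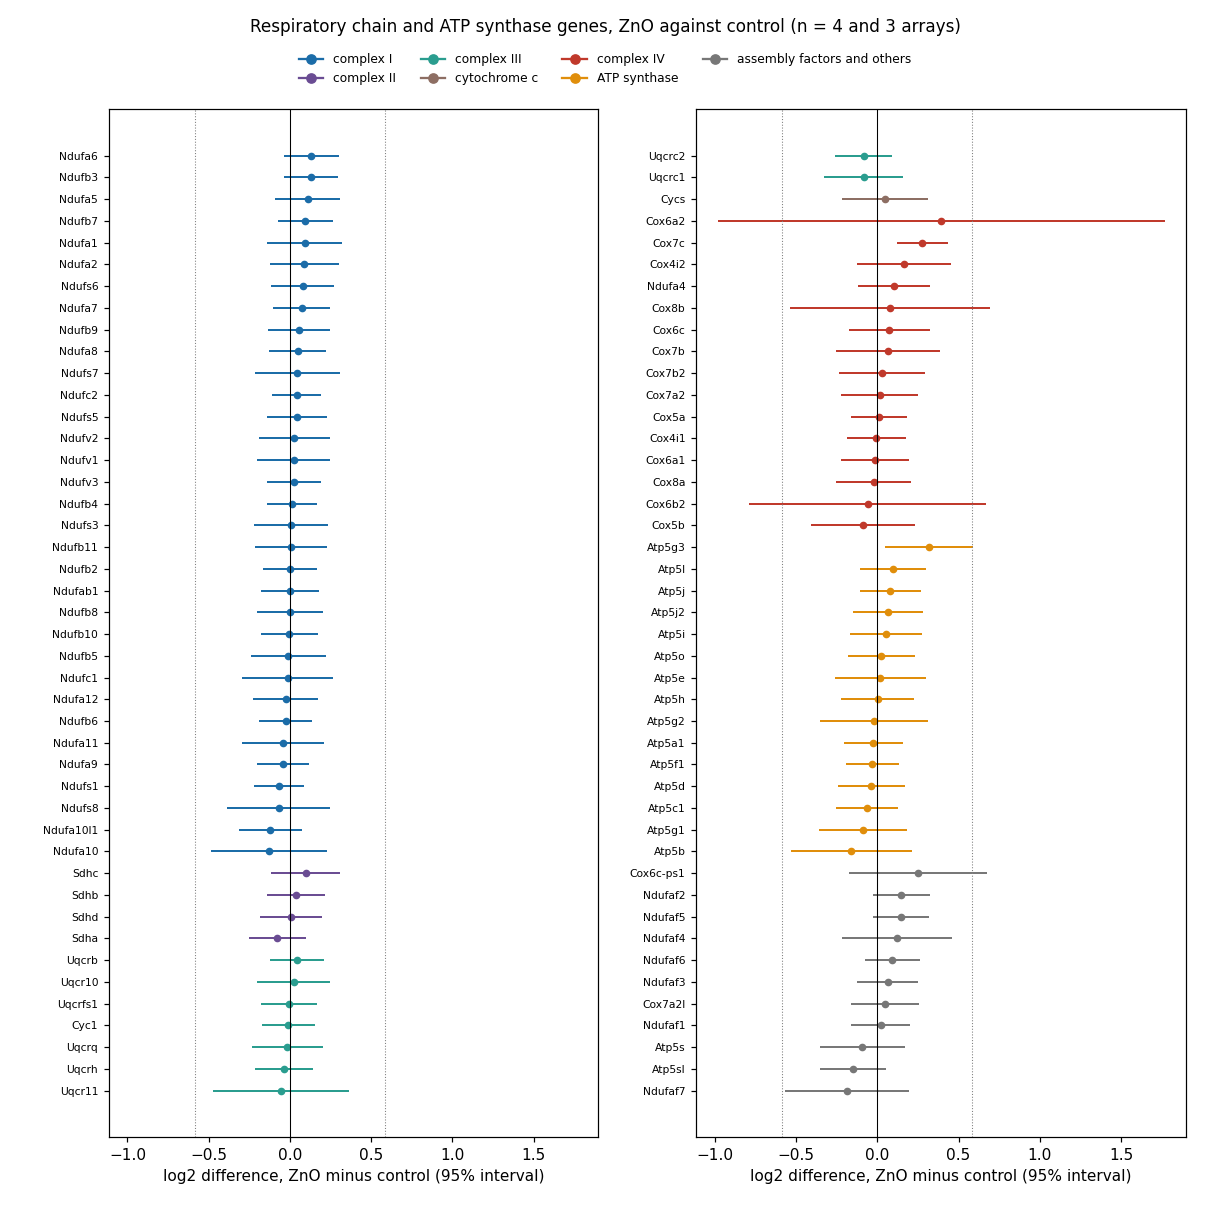
Log2 difference (ZnO minus control) of 88 of the tested genes on the horizontal axis, each at its brightest tested probe with limma's 95% interval, colored by complex; dotted lines mark 1.5-fold. Most points lie within 0.2 of 0, and the widest interval is that of Cox6a2.

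**Figure D2:**
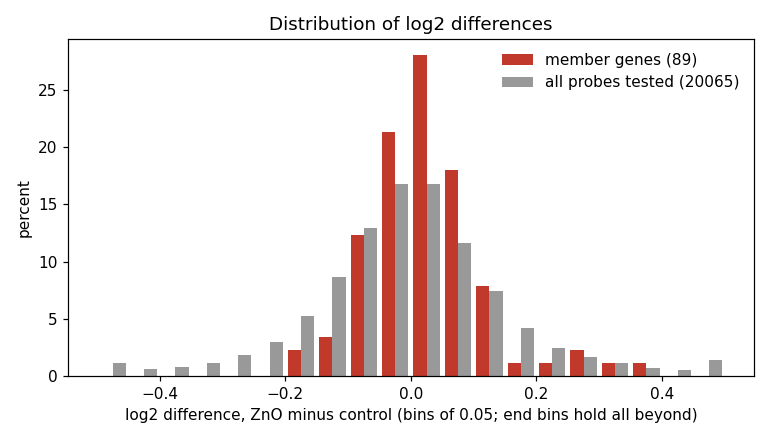
Percent of genes (red, the 89 members, each at its brightest tested probe) and of probes (grey, all 20065 tested, of any brightness) in each bin of 0.05 of the log2 difference. Values beyond the ends are in the end bins. No member lies below -0.2, and the red bars are gathered closer to 0 than the grey ones.

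Complex I, the NADH dehydrogenase, was the largest set, with 34 of its 35 genes tested. Their median difference was 0.017, with 22 genes above 0 and 12 below. Levels of single arrays are given below on the log2 scale, relative to the 75th percentile of each array.

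The subunits described here from the catalytic core, which carry the flavin and the iron-sulfur clusters, lay close to 0. Ndufv1, the flavin-binding subunit, differed by 0.024 (standard error 0.094) and Ndufv2 by 0.027 (0.090). Ndufs1, which holds several iron-sulfur clusters, differed by -0.068 (0.063). Ndufs3 differed by 0.0069 (0.096), Ndufs7 by 0.045 (0.11) and Ndufs8 by -0.070 (0.13). None of these had an unadjusted p under 0.05.

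Among the accessory subunits, Ndufb3 was the only member of complex I with a probe whose groups did not overlap. This was the brighter of its 2 tested probes. On it the control arrays read between 4.07 and 4.20 and the ZnO arrays between 4.22 and 4.29. The gap between the highest control array and the lowest ZnO array was small next to the spread within the control group, and the difference was 0.13 (standard error 0.068, limma's adjusted p = 0.894). On the dimmer Ndufb3 probe the groups overlapped, with a difference of 0.17 (0.14). The lowest gene of the complex was Ndufa10, at -0.13 (0.15). Its probe was dim (control mean -4.03) and lies on rn4 between the 2 probes of Ndufa10l1, which was counted as a separate gene. The Ndufa10l1 probes gave -0.12 (0.081) and -0.14 (0.095).

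Over all complexes, 3 member probes had every ZnO array above every control array (2.54%), beside 3.79% of all probes tested, and 0 had every ZnO array below, beside 3.59%. They belonged to Ndufb3, Cox7c and Ndufaf5, an assembly factor of complex I. Ndufaf5 read 0.25, 0.37, 0.38 and 0.21 in control cells and 0.43, 0.48 and 0.44 in ZnO cells, a difference of 0.15 (standard error 0.072, limma's adjusted p = 0.869).

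**Figure D3:**
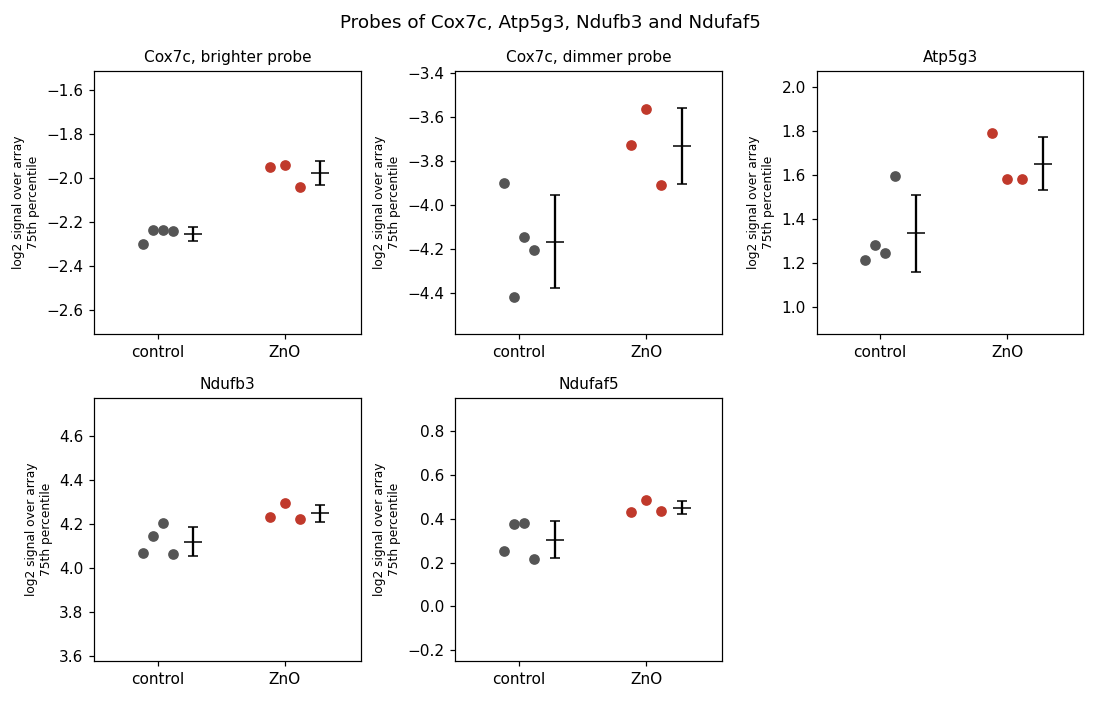
Log2 signal relative to the 75th percentile of each array, 1 point per array. Shown are the 2 probes of Cox7c, the probes of Atp5g3 and Ndufaf5, and the brighter probe of Ndufb3. Bars to the right of the points give the mean and SD of each group, and every panel spans the same height. The ZnO points lie above all control points for the brighter Cox7c probe, the Ndufb3 probe shown and Ndufaf5, and overlap them for the others.

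Zinc-binding subunits were looked at by themselves, because ZnO NPs are known to release zinc ions. The 2 on the list, Ndufs6 of complex I and Cox5b of complex IV, hold a zinc ion as part of their fold. Ndufs6 read 2.70, 2.53, 2.71 and 2.55 in control cells and 2.78, 2.61 and 2.71 in ZnO cells, with a difference of 0.078 (standard error 0.081). The brighter Cox5b probe read 5.28, 5.33, 5.61 and 5.30 in control cells and 5.56, 5.24 and 5.07 in ZnO cells. The groups of Cox5b overlapped, its difference was -0.090 (0.13), and its dimmer probe gave 0.12 (0.088), so the sign was not settled. By limma their adjusted p-values were 0.975 for Ndufs6 and, for Cox5b, 0.997 and 0.946.

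Complex II, the succinate dehydrogenase shared with the citric acid cycle, had 4 genes and all were tested, with a median difference of 0.023. Sdha, which binds the flavin, was lowest at -0.077 (standard error 0.073), and Sdhc, one of the membrane anchors, was highest at 0.096 (0.089). Sdhb, the iron-sulfur subunit, differed by 0.037 (0.073) and Sdhd, the other anchor, by 0.0092 (0.079). The smallest adjusted p in the complex was 0.971 by limma.

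Complex III, the cytochrome bc complex, had 9 genes, and 7 of them lay below 0 with a median of -0.017. Uqcrfs1, the Rieske iron-sulfur protein, read 3.60 to 3.77 in control cells and 3.63 to 3.74 in ZnO cells and differed by -0.0039 (standard error 0.071). Cyc1, which passes electrons to cytochrome c, differed by -0.011 (0.068) with its brighter probe and by 0.046 (0.069) with the dimmer one. Uqcr11 likewise gave -0.058 with its brighter probe and 0.16 with the dimmer one. The range of the complex ran from -0.084 in Uqcrc1, a core protein, to 0.043 in Uqcrb, whose dimmer probe gave -0.0046.

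Cytochrome c itself, encoded by Cycs, is the mobile carrier and also the protein that triggers apoptosome assembly when it leaves the mitochondrion. Its brighter probe, which is not the one whose letters are shown above, read 2.86, 3.04, 2.86 and 2.95 in control cells and 2.72, 3.13 and 3.07 in ZnO cells. The ZnO arrays held both the lowest and the highest value of the 7. The difference was 0.047 (standard error 0.11), and the dimmer probe, whose letters are shown, gave 0.060 (0.078).

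Complex IV, cytochrome c oxidase, had the member with the smallest p. Of its 17 genes, 15 were tested, with a median difference of 0.027. An unadjusted p under 0.05 was found for 1 of them, beside 5.91% of all probes tested. This was Cox7c, a small membrane subunit, read by 2 probes that both had such a p. Both were dim, with control means of -2.25 and -4.17, beside 3.22 for Cox7b and 6.54 for Cox6a1. The brighter Cox7c probe read -2.30, -2.24, -2.24 and -2.24 in control cells and -1.95, -1.94 and -2.04 in ZnO cells. These groups did not overlap, and the difference of 0.28 (standard error 0.064) corresponds to a fold change between 1.09 and 1.34 at 95%. Its adjusted p was 0.499 by limma, the smallest of any member.

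The dimmer Cox7c probe read -3.90, -4.42, -4.15 and -4.20 in control cells and -3.73, -3.56 and -3.91 in ZnO cells. Here control 1 lay just above ZnO 3, and the difference was 0.43 (standard error 0.14, limma's adjusted p = 0.729). On rn4 the array files place the brighter probe at chr2:15254139-15255000 and the dimmer at chr2:15254519-15254578, both on the minus strand. The first span is longer than a probe and holds the second, so the probes may not read the same form of the transcript.

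The remaining ubiquitous subunits of complex IV lay close to 0. Cox4i1, a large nuclear-encoded subunit, read 6.05 to 6.17 in control cells and 6.03 to 6.21 in ZnO cells and differed by -0.0062 (standard error 0.075). Cox6a1 differed by -0.013 (0.087). Cox6c differed by 0.074 (0.10) with its brighter probe and by 0.14 (0.098) with the dimmer one, whose letters are shown above, while the probe of its pseudogene gave 0.25 (0.18).

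Tissue-restricted isoforms were where complex IV varied most. Cox6a2, the isoform known from heart and skeletal muscle, was well above background on all 7 arrays with both probes. The brighter read -2.60, -1.32, -2.99 and -0.93 in control cells and -2.52, -1.36 and -0.83 in ZnO cells. Control 1, control 3 and ZnO 1 were low and the other 4 arrays high, so each group was split. The range over arrays was 2.15 log2 units, wider than that of 99.1% of all probes tested, beside a median range of 0.30 over member probes and 0.40 over all probes.

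With such a spread the group difference of Cox6a2 is poorly fixed. It was 0.39 (standard error 0.59), or between 0.51-fold and 3.39-fold at 95%, and moved to 0.87 without ZnO replicate 1 and to 0.024 without ZnO replicate 3. The second probe followed the first over the 7 arrays (r = 0.997, both on the same arrays) and gave 0.31 (0.59). The ubiquitous partner Cox6a1 ranged over 0.26 log2 units on the same arrays.

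Of 7 tissue-restricted isoforms with a probe, 5 were tested, with a median difference of 0.076 and none at an unadjusted p under 0.05. The others varied less than Cox6a2. Cox6b2, known from testis, had a range wider than that of 92.7% of all probes tested and a difference of -0.059. Its arrays did not follow the mean of both Cox6a2 probes (r = -0.19 over 7 arrays). Cox8b, another muscle isoform, had a range of 1.00 and a difference of 0.076. Cox4i2, known as the oxygen-regulated and lung-enriched form of subunit IV, differed by 0.16 (standard error 0.12, limma's adjusted p = 0.946).

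**Figure D4:**
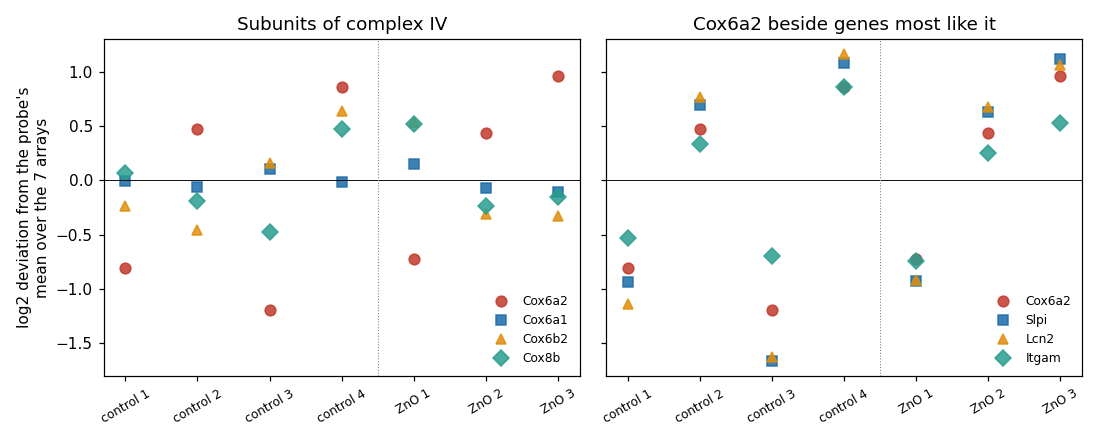
Log2 deviation of a probe from its own mean over the 7 arrays, for 4 subunits of complex IV (left) and for Cox6a2 beside Slpi, Lcn2 and Itgam (right); each point is 1 array and the dotted line parts control from ZnO. Cox6a2 is low on control 1, control 3 and ZnO 1, as are the genes on the right, while Cox6a1 stays near 0.

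The ATP synthase had 15 genes, all tested, with a median difference of 0.0017, 8 genes above 0 and 7 below. The subunits of its catalytic head were Atp5a1 (alpha, -0.025, standard error 0.075), Atp5b (beta, -0.16, 0.16), Atp5c1 (gamma, -0.062, 0.079), Atp5d (delta, -0.037, 0.085) and Atp5e (epsilon, 0.018, 0.12). Atp5o, the stalk subunit that confers oligomycin sensitivity, differed by 0.024 (0.085). Atp5b was the lowest gene of the complex, with 3.47, 3.41, 3.84 and 3.80 in control cells and 3.74, 3.42 and 3.24 in ZnO cells.

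Atp5g3 was the highest gene of the ATP synthase and had an unadjusted p under 0.05. It is one of 3 genes, with Atp5g1 and Atp5g2, whose products give the same ring subunit c after their leader peptides are cut off. It read 1.21, 1.28, 1.25 and 1.59 in control cells and 1.79, 1.58 and 1.58 in ZnO cells. Control 4 lay above 2 of the ZnO arrays, and the difference was 0.32 (standard error 0.11, limma's adjusted p = 0.797). Atp5g1 differed by -0.089 and Atp5g2 by -0.019, without a test of the 3 genes against each other.

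The 11 genes caught by their prefix were Ndufaf1 to Ndufaf7, which help to build complex I, Cox7a2l, which helps to join complexes III and IV, Atp5s, Atp5sl and Cox6c-ps1. Their median difference was 0.063, with 8 above 0 and 3 below, and none had an unadjusted p under 0.05. Ndufaf7 was lowest at -0.18 (standard error 0.16), while its dimmer probe gave -0.021 (0.14).

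Where a gene had several tested probes, the gaps between their log2 differences were small. The differences themselves were small too, so these gaps do not show that the probes agreed. In 26 such genes the probes differed by a median of 0.049 and at most by 0.24 in the log2 difference, and in 19 all probes had the same sign. The largest gap was that of Uqcrq, whose dimmer probe gave -0.26 and whose brighter gave -0.017. Over the arrays, the lowest correlation between probes of a gene ran from -0.50 for Ndufb4 to 0.997 for Cox6a2. The levels of such probes differed by up to 8.79 log2 units, for Ndufb3.

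Single arrays differed from each other by more than the groups did. For each array the median deviation of the 89 genes from their own means was taken. It was -0.049, -0.024, 0.053 and -0.013 on the control arrays and 0.11, -0.023 and -0.036 on the ZnO arrays. The groups overlapped, and ZnO 1 stood highest. The control mean was -0.0084 ± 0.043 (SD, n = 4), and that of the exposed cells was 0.016 ± 0.079 (SD, n = 3). Over all probes tested the same medians lay between -0.021 and 0.021.

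On ZnO 1, 70 of the 89 genes lay above their own mean (78.7%), beside 54.4% of all probes tested, and 48.3% of the genes had their highest value there, beside 21.7%. The share above the mean was nearly as high on control 3, at 74.2% beside 49.3%. On control 1 it was 20.2% beside 49.4%. Complex IV (0.19), the ATP synthase (0.17) and complex I (0.082) shared the rise on ZnO 1, while complex II (-0.044) and Cycs (-0.22) did not. After quantile normalization the median on ZnO 1 was 0.037 and that on control 3 was 0.051, so the height of ZnO 1 depended on the scaling. The 75th percentile of its signal was among the lower ones, at 980 beside 958 to 1489 in control arrays and 1304 and 1603 in the other ZnO arrays. The part of signal level in this pattern was not tested.

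**Figure D5:**
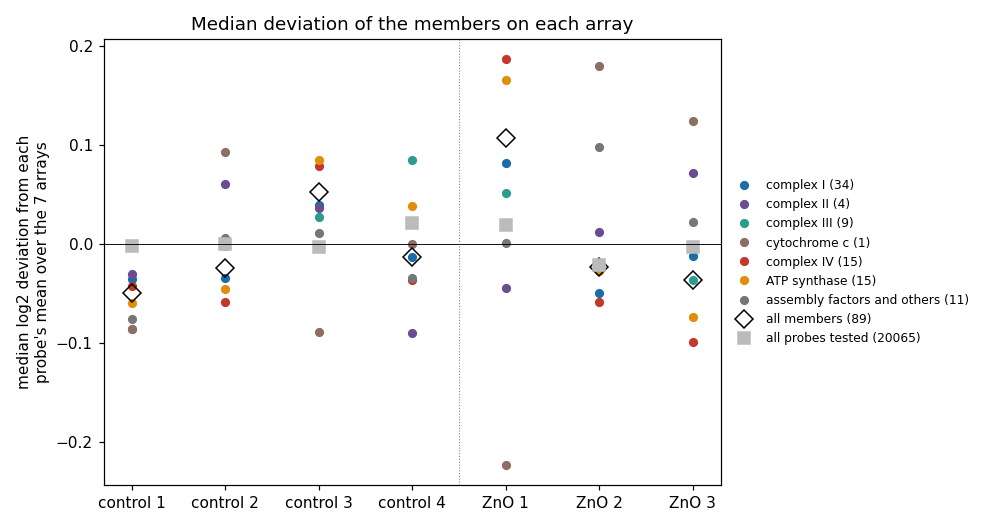
Median log2 deviation of each set of genes from their own means over the 7 arrays (vertical axis), by array; colored points are the complexes, diamonds the 89 genes and squares all 20065 probes. The diamonds stand highest on ZnO 1 (0.11) and lowest on control 1 (-0.049), while the squares stay near 0.

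Some of the genes also share letters around their start sites, which the choice by name did not use. RefSeq promoters on GRCr8 (250 bases before the start and 50 after) were matched for 78 of the 92 genes. The letters GCATGCG, read on both strands as the core of the site bound by NRF-1, a regulator of nuclear genes for mitochondrial proteins, were in 14 (17.9%), beside 3.54% of all 27457 promoters. Those of Cycs, Sdhb and Uqcrc1 were among them. CCGGAAG, read on both strands as the core bound by ETS factors such as GABP, was in 20 (25.6%), beside 9.21%. TATAAA, on both strands, was in 6 (7.69%), beside 14.3%. The median GC content was 57.0% in these promoters and 52.3% in all, and its part in the shares was not tested.

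The 250 bases before the start of Atp5po (the current name of Atp5o, chr11:44657484-44657733, minus strand of GRCr8) and of Ndufaf5 (chr3:147961362-147961611, plus strand) show the NRF-1 core, in capitals, where its matches on the 2 strands overlap. Ndufaf5 is shown because its groups did not overlap, and Atp5po because its difference was close to 0 with the same letters present.
Atp5po: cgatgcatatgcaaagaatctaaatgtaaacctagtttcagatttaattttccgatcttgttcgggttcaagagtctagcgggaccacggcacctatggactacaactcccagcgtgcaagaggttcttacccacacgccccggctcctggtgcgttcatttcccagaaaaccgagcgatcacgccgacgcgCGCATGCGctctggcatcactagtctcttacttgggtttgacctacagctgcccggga
Ndufaf5: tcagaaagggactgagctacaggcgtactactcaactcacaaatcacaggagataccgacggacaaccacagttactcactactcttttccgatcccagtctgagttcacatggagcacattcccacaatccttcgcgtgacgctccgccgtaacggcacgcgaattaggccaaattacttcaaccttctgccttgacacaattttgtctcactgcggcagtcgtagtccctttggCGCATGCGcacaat
A match of letters is a description of these windows and not a bound site.

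Genes around the chain gave the same picture, with 0 called in either direction in every list by limma at an adjusted p under 0.05. Of 34 tested assembly factors outside the name rule, 1 had an unadjusted p under 0.05, beside 5.91% of all probes tested. It was Sdhaf3 of complex II, at 0.18 (limma's adjusted p = 0.827), and Cox16 of complex IV was next at 0.12. A further list held 6 tested genes for the inhibitor of the ATP synthase, the nucleotide and phosphate carriers and the uncoupling proteins. Of these, 1 had an unadjusted p under 0.05, the inhibitor Atp5if1, at 0.17 (limma's adjusted p = 0.844). Slc25a5, an ADP/ATP carrier, was at -0.11.

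No gene of the other lists reached an unadjusted p under 0.05. Of 17 tested regulators of mitochondrial biogenesis, the smallest p-values were those of Polg, the mitochondrial DNA polymerase, at -0.21, and of Ssbp1, which binds single-stranded mitochondrial DNA, at 0.18. Of 18 tested genes of pyruvate dehydrogenase and the citric acid cycle, they were those of Pdhx and Ogdh. Pdhx, a structural part of pyruvate dehydrogenase, was at 0.53 (standard error 0.24, limma's adjusted p = 0.868). Its probe was dim, at -6.22 to -5.15 in control cells and -5.31 to -4.86 in ZnO cells, and the groups overlapped. Ogdh, of the 2-oxoglutarate dehydrogenase complex, was at -0.18. Of 12 tested genes of coenzyme Q synthesis, the smallest p-values were those of Coq8a at -0.25 and Coq3 at 0.10. The medians of these lists around the chain lay between -0.055 and 0.027. No probe of the array was matched to the subunits encoded by mitochondrial DNA, so they were not analysed here.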

How the data were processed

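Per the labels, total RNA of NR8383 cells (4 control and 3 ZnO replicates) was labelled with Cy3 and hybridised to 1 Agilent array each. The authors read the scans in Agilent Feature Extraction 11.0.1.1 (version from the submitters' processing notes). The deposited files of the arrays give, per spot, an intensity from which background was subtracted and which was not yet normalized across arrays. A further deposited table repeats the median intensity of the scanner (100% of its values equal it on every array) and served as an alternative.

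Here log2 of the processed intensity minus log2 of the array's 75th percentile was computed. Repeated spots of a probe were averaged, leaving out marked outliers. Probes well above background throughout a group, in 1 group or both, were tested (20065) with limma 3.58.1 (lmFit, eBayes) in R 4.3.3, and Benjamini-Hochberg adjustment ran over all of them. A gene takes its brightest tested probe. The number of arrays limits the precision. The fit was tested on simulated data. The labels call the samples biological replicates.

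Members and gene lists were chosen with earlier results of these data known. Named are genes with an unadjusted p under 0.05 or with groups that did not overlap at a log2 difference of 0.2 or more, the extremes of each complex, the zinc-binding and catalytic subunits, undetected genes and up to 2 genes of each list. The other isoforms of complex IV, Ndufb3, Ndufaf5, Atp5g1, Atp5g2, Uqcrq and the genes like Cox6a2 were chosen after their values were seen. Gene symbols were updated through RefSeq (GRCr8): 114 of 126 probes by accession and 12 by symbol or synonym. Probe positions are those of the files (rn4). One result the rule names is not reported here. No gene models of that build were used, so exons and introns are not given. Promoters are RefSeq's. Replicate numbers were not taken to pair the samples (correlations of same-numbered deviations of -0.089, 0.21 and -0.24). So few correlations cannot settle whether the cultures were matched. Alternatives covered scaling, background correction (normexp, offset 50), filters, moderation, array weights, a replicate block and leaving out each array. Python 3.11.15, pandas 2.3.3, numpy 2.4.6, data.table (1.17.8) and matplotlib 3.10.9 were used.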

Additional observations from a re-analysis of the deposited data

Results flagged for a closer look

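In 39 comparisons of the 4 control arrays, 3 had a highest or lowest array that stood apart from the others by more than Dixon's 95% limit allows, and chance alone gives about 1 in 20. For Cox5b, control 3 read 5.61 and the others 5.28 to 5.33, with a gap of 0.845 of the whole range. The median of complex IV stood at 0.079 on control 3 and between -0.058 and -0.036 on the others, with a gap of 0.838. For Cox7c, control 1 read -2.30 and the others -2.24, with a gap of 0.883 over a range of less than 0.1 log2 units.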

How the results depend on the processing

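No member probe was called under any of 21 alternatives, and the median log2 difference of the members ran from -0.020 (median centring) to 0.12 (spike-in centring). The latter was the single alternative that moved it past the spread between arrays, and the median of all probes stood at 0.091 under it. Leaving out each array in turn gave 0 calls and a median from -0.018 to 0.038. The members at an unadjusted p under 0.05, 4 as reported, became 0 with spike-in centring (0.194% of all probes), 8 without variance moderation (6.28%), 11 with array weights (13.3%), 2 without control replicate 3 (5.47%) and 7 without ZnO replicate 1 (8.95%). A fit with the replicate block, although the numbers were not taken as pairs, called 0 members and gave a median of 0.020. It left 2 members at an unadjusted p under 0.05 (4.76% of all probes). For the 31 named genes, 603 of 620 values moved by less than 1 SD between replicates. Of the others, 5 were those of Cox7c, whose SD was 0.042. The sign was the same under all 20 alternatives that gave a value in 10 genes, among them Cox7c (0.19 to 0.37) and Atp5g3 (0.25 to 0.42). The smallest adjusted p of a named gene under any of them was 0.167, for Cox7c with array weights. A slide block could not be fitted, since all arrays share 1 slide. The widest interval among the members was that of Cox6a2, and the number of arrays limits them all.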

Other observations

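The arrays on which Cox6a2 was low (control 1, control 3 and ZnO 1) were also low for a set of genes outside the chain. Among 887 named genes whose range over the arrays was above 1 log2 unit, the 10 most like Cox6a2 were Slpi, Lcn2, Upp1, Slpil3, Cda, Slamf8, Slc28a2, Itgam, Rgcc and Mmp3, by Pearson's r over the 7 arrays. These r values, taken with the mean of both Cox6a2 probes, ran from 0.965 to 0.995, and 13 genes were above 0.95. They are a description over 7 arrays, chosen after the values were seen, and all points share the same libraries and scaling. Lcn2, which encodes a siderophore-binding protein, read 2.06, 3.97, 1.57 and 4.37 in control cells and 2.28, 3.88 and 4.27 in ZnO cells. Slpi, which encodes a protease inhibitor, spanned 2.78 log2 units, and neither gene was called by limma (adjusted p = 0.999 for both).

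Itgam, the integrin alpha M chain of macrophages (r = 0.974), lies near Cox6a2 on chromosome 1 of rn4. Its probe at chr1:187385777-187385836 starts 78803 bases from the Cox6a2 probe at chr1:187464580-187464639. Between them lies Itgad, another integrin chain, whose probe starts 1590 bases from that of Cox6a2 and has an r of 0.83. On the other side LOC103691238, at 28124 bases, had an r of 0.39 and a range of 0.88 log2 units. Armc5, at 38316 bases, had an r of -0.34 and a range of 0.28 log2 units.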
